A study of Homo sapiens with 47 samples.

Results

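The RBM (RNA-binding motif protein) genes encode proteins that carry RNA recognition motifs and work in splicing, nuclear RNA decay, m6A writing and removal, ribosome assembly and germ-cell or muscle RNA processing. Members were the RefSeq protein-coding genes of chromosomes 1 to 22 and X whose symbol is RBM or RBMS followed by a number, with or without letters, together with RBMX. The rule used symbols and no measured value, and it found 41 genes of 19974 protein-coding genes. All 41 had a known strand, as did 17560 protein-coding genes in all, and 24 members lie on the plus strand and 17 on the minus strand.

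The sites came from uSpyCLIP-seq of Lenti-X 293T, a cell line derived from human embryonic kidney and selected for making lentivirus. In this assay ultraviolet light crosslinks a stably expressed, tagged protein to RNA, and the protein is pulled out through the covalent bond that SpyTag forms with SpyCatcher. The series has 47 libraries in 20 groups, and 17 groups had a site list that was used here. The other 3 groups, dPspCas13b and dRfxCas13d libraries without crosslinking and dRfxCas13d with guide gNT, were not analysed here. The guide-carrying Cas13 groups expressed a catalytically dead RNA-targeting nuclease, dPspCas13b or dRfxCas13d, with guide EZH2g1, with guide EZH2g2, or with another guide called here the third guide. Their controls were the same 2 proteins without a guide, and each Cas13 group had 3 crosslinked libraries. RBFOX2 was profiled from 10000000 cells with 2 libraries, and PTBP1 from 1000, 10000, 100000 and 10000000 cells with 2 libraries each. SpyCatcher version 2.0 was set against version 1.0 at 20 and 40 µg with 1 library each. The captured protein is not in the labels of these 4 groups, and their lists carry PTBP1 in the name.

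Each list holds positions and strands on hg38, with no read count or score, so sequencing depth is unknown. With a single list per group, replicate spread cannot be measured and no test between groups was made. Parentheses after a value hold its exact 95% interval, which covers counting error only. A site was given to a gene when its midpoint lay in the gene span on the gene's strand. Exons, introns and untranslated regions were not separated, since gene spans alone were used. The files hold no RNA levels, and the part that transcript abundance has in any number of sites was not tested.

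PTBP1 binds pyrimidine-rich RNA, often in introns beside regulated exons, and RBFOX2 binds the element GCAUG. Many RNA-binding proteins bind transcripts of other RNA-binding proteins and of themselves, and through this change exons that decide whether the transcript is kept or decayed. Among the members, RBM26 and RBM27 belong to the poly(A) tail exosome connection, which delivers polyadenylated nuclear RNA to the exosome, and RBM5, RBM6 and RBM10 are related splicing regulators.

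Sequence under a cluster (the narrow PTBP1 or RBFOX2 site) was read only near gene starts, from RefSeq promoter windows of GRCh38.p14, and for RBM26 from the window of its antisense neighbour RBM26-AS1. The sequences below show what lay under clusters at the 5′ ends of the 6 members that had one there, of which RBM26 was the most heavily bound. Capitals mark the cluster, and lower case marks the bases beside it, in the 5′ to 3′ direction of the gene.
RBM26, PTBP1 at 10000000 cells, chr13:79406143-79406172, minus strand: cccttcgcCTTCGCTTTCTTTActtttgcc
RBM26, PTBP1 at 10000000 cells, chr13:79406128-79406157, minus strand: ttctttacTTTTGCCTTTTCGAcgtagcca
RBM26, PTBP1 at 100000 cells, chr13:79406141-79406169, minus strand: ttcgccttcgCTTTCTTTActtttgcctt
RBM33, RBFOX2, chr7:155644679-155644707, plus strand: atgttgcggtagtTTGttgttttcttcct
RBM33, PTBP1 at 10000 cells, chr7:155644685-155644710, plus strand: cggtagtttgttGTTTTCttcctgcg
RBM41, PTBP1 at 100000 cells, chrX:107118698-107118726, minus strand: tgttctaccTTTTCTTTTGAaaatggctt
RBM14, PTBP1 at 10000000 cells, chr11:66616616-66616644, plus strand: ctcggtcgccagCCATTcctgaggaggac
RBM4, PTBP1 at 100000 cells, chr11:66638730-66638752, plus strand: aggccctgctggtTTCtgtgcgg
RBM12, PTBP1 at 10000000 cells, chr20:35664883-35664912, minus strand: gggccgacggCCATTTTGTGaagcggcgaa
The printed RBM26, RBM33 and RBM41 sequences hold TCTT or CTTT, and those of RBM14, RBM4 and RBM12 hold neither. The RBFOX2 cluster of RBM33 ended just before its PTBP1 cluster at 10000 cells, and none of the printed sequences holds GCATG.

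Searched with 20 nt on each side and on the strand of the cluster, TCTT or CTTT, which overlap in TCTTT and CTTTCTT, stood in 2 of 4 member clusters at 10000000 cells. In the other protein-coding genes the same letters stood in 54.7% of 2584 clusters within promoter windows. All stretches of 46 nt from the promoter windows held TCTT or CTTT in 24.2% of 131898 cases. Around RBFOX2 clusters of other genes GCATG stood in 2.29% of 393 cases, against 2.86% of all such stretches. TCTT or CTTT stood in 64.1% of the same 393 RBFOX2 cases, against 24.2% of the stretches. So few member clusters lie in these windows that no share can be read from them.

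Most RBM genes carried RBFOX2 clusters and nearly all carried PTBP1 clusters. RBFOX2 had a cluster in 33 of the 41 members, where 44% of all protein-coding genes had one. Of PTBP1, 24 members held a cluster at 1000 cells, where 34.7% of all protein-coding genes did, and 32 held one at 10000 cells, against 51.8% of all genes. At 100000 cells 38 members were reached, against 62.2% of all genes, and at 10000000 cells 39 members, against 66.2%. Strand came from PTBP1 clusters at 10000000 cells for 1747 genes, 4 of them members. Each of these genes thus holds a cluster at that input by construction, and 2414 genes without strand are not in the shares. In 22 members every PTBP1 input gave a cluster, where 30.8% of all genes had one in each, and 21 of these also had RBFOX2, where 27.7% of all genes did. Members were of ordinary length, with a median span of 28.4 kb against 26.8 kb for the other protein-coding genes, and made up 0.231% of the summed span of genes.

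The members' part of a list was larger the fewer the cells. RBM genes held 256 of 27963 clusters in protein-coding genes at 1000 cells, which is 0.915% (0.807 to 1.03). They held 1553 of 231416 at 10000 cells, or 0.671% (0.638 to 0.705), and 3446 of 717736 at 100000 cells, or 0.480% (0.464 to 0.496). At 10000000 cells they held 3923 of 899499, or 0.436% (0.423 to 0.450). RBM26 alone made up 41.4%, 23.8%, 12.4% and 11.7% of the members' clusters at these inputs, and without it the members' share was 0.536% (0.454 to 0.629), 0.511% (0.483 to 0.541), 0.420% (0.406 to 0.436) and 0.385% (0.372 to 0.398). Without RBM26 the shares at 1000 and 10000 cells thus could not be told apart within counting error.

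**Figure D1:**
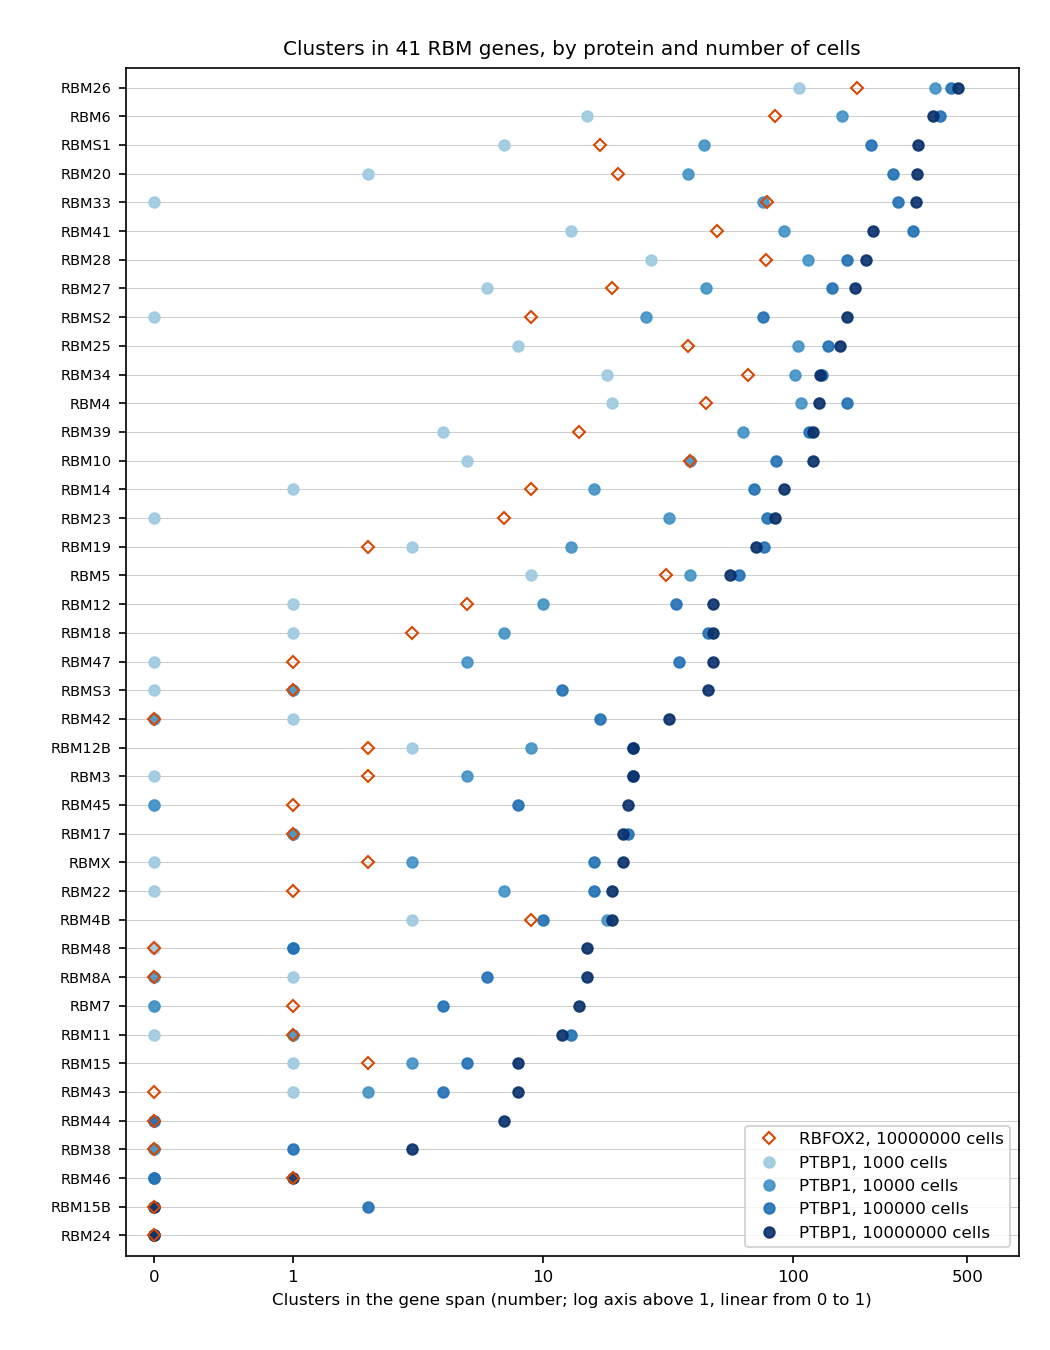
Number of clusters in each of the 41 RBM genes (rows, ordered by the number at 10000000 cells) for RBFOX2 (open diamonds) and for PTBP1 at 1000, 10000, 100000 and 10000000 cells (circles, light to dark blue); the horizontal axis is logarithmic above 1. RBM26 is highest in all 5 lists, and RBM24 is at 0 in all of them.

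RBM26 headed the family in all 9 lists of PTBP1, RBFOX2 and SpyCatcher. RBM26 (chromosome 13, 79311827 to 79406255, minus strand) held 181 RBFOX2 clusters, and 106, 370, 428 and 460 PTBP1 clusters from the lowest to the highest number of cells. The SpyCatcher lists had 57 and 62 with version 2.0 and 38 and 42 with version 1.0, at 20 and 40 µg. At 1000 cells the PTBP1 number of the gene was thus 23.0% of that at 10000000 cells, and at 10000 cells 80.4%. Per 10 kb of span it held 48.7 PTBP1 clusters at 10000000 cells, more than 97.2% of the protein-coding genes.

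The other genes of nuclear decay and m6A differed widely from RBM26. RBM27, its partner and paralog, held 19 RBFOX2 clusters, and 6, 45, 144 and 177 PTBP1 clusters from the lowest to the highest input. Over 85.6 kb this gene is close to RBM26 in span (94.4 kb), yet at 1000 cells it had 6 PTBP1 clusters and RBM26 had 106. RBM33, a cofactor in m6A removal, held 79 RBFOX2 clusters, and 0, 76, 263 and 311 of PTBP1. It had no cluster at 1000 cells although only 4 members had more at 10000000 cells, and 0 beside 311 allows, at 3 counts, up to 0.965%. RBM15 and RBM15B, adaptors of the m6A writer, were sparsely bound. RBM15 had 2 RBFOX2 clusters and 1, 3, 5 and 8 of PTBP1, and RBM15B had none of RBFOX2 and, of PTBP1, only 2 at 100000 cells. RBM7, of the nuclear exosome targeting complex, had 1 RBFOX2 cluster and 0, 0, 4 and 14 of PTBP1.

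The 20 splicing regulators ranged from 0 to 85 RBFOX2 clusters and from 0 to 364 PTBP1 clusters at 10000000 cells. RBM6 held 85 RBFOX2 clusters, and 15, 157, 389 and 364 of PTBP1 from 1000 to 10000000 cells. Its neighbour on chromosome 3, RBM5, held 31 of RBFOX2, and 9, 39, 61 and 56 of PTBP1. RBM10, the X-linked relative of RBM5, held 39 of RBFOX2, and 5, 39, 86 and 120 of PTBP1. All 3 of these genes had clusters at every input. RBM4, which regulates alternative exons, held 45 RBFOX2 clusters, and 19, 108, 165 and 127 of PTBP1. RBM41, a protein of the minor spliceosome, held 50 of RBFOX2, and 13, 92, 302 and 209 of PTBP1. RBM4 and RBM41 had more PTBP1 clusters at 100000 than at 10000000 cells, as had 9 members in all, these included. The same share over all genes was not counted. In genes with at least 50 clusters at 10000000 cells, the 100000-cell number was taken as a percent of that number. Its upper quartile was 106% in the 18 members of this size and 91.4% over all such genes.

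RBM25, which acts on splice-site choice, held 38 RBFOX2 clusters, and 8, 105, 138 and 154 of PTBP1. RBM39, a U2AF-like factor, held 14 of RBFOX2, and 4, 63, 116 and 121 of PTBP1. Its paralog RBM23 held 7 of RBFOX2, and 0, 32, 79 and 85 of PTBP1. RBM23 thus had no PTBP1 cluster at 1000 cells and RBM39 had a few. RBM20, known for titin splicing in heart muscle, held 20 RBFOX2 clusters over 196 kb, and 2, 38, 253 and 315 of PTBP1. RBM14, a paraspeckle protein, held 9 of RBFOX2, and 1, 16, 70 and 92 of PTBP1. RBM42 held none of RBFOX2, and 1, 0, 17 and 32 of PTBP1. RBM17, RBM48 and RBMX had few clusters. RBM17, which helps in recognition of the 3′ splice site, held 1 of RBFOX2, and 1, 1, 22 and 21 of PTBP1. RBM48, a minor spliceosome protein, held none of RBFOX2, and 0, 1, 1 and 15 of PTBP1. RBMX, the X-linked hnRNP G, held 2 of RBFOX2, and 0, 3, 16 and 21 of PTBP1. RBM24, a muscle splicing regulator, had no site in any of the 17 lists and was the only member without one. The 4 members with at most 3 PTBP1 clusters at 10000000 cells, named after their values were seen, were RBM24 and RBM15B at 0, RBM46 at 1 and RBM38 at 3.

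Of the 3 nucleolar ribosome-assembly genes, RBM28 and RBM34 held more clusters than RBM19 in all 5 lists of RBFOX2 and PTBP1. RBM28 held 78 RBFOX2 clusters, and 27, 115, 165 and 197 of PTBP1. RBM34 held 66 of RBFOX2, and 18, 102, 131 and 129 of PTBP1. RBM19, the longest of the 3 at 150 kb, held only 2 of RBFOX2, and 3, 13, 77 and 71 of PTBP1. The proteins of the RBMS genes bind single-stranded nucleic acid, and RBMS1 and RBMS2 had few RBFOX2 clusters beside many of PTBP1 at high input. RBMS1 held 17 of RBFOX2, and 7, 44, 205 and 317 of PTBP1. RBMS2 held 9 of RBFOX2, and 0, 26, 76 and 165 of PTBP1. Of the short genes, the cold-induced RBM3 held 2 of RBFOX2, and 0, 5, 23 and 23 of PTBP1, and RBM12 held 5 of RBFOX2, and 1, 10, 34 and 48 of PTBP1.

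Scaled to gene span, members both shorter and longer than the family's median span stood beside RBM26. RBM14 held 69.1 clusters per 10 kb at 10000000 cells, more than 99.1% of protein-coding genes, followed by RBM26, RBM34 with 42.9, RBM4 with 42.8, RBM28 with 42.6, RBM42 with 37.0, RBM3 with 34.4, RBM23 with 32.8, RBM41 with 31.3 and RBM12 with 30.0. The median member held 18.2 per 10 kb, against 3.71 in the other protein-coding genes, whose median includes genes without a cluster. RBM14 and RBM4 share their strand with the read-through gene RBM14-RBM4, RBM12 lies within CPNE1, and RBM27 overlaps RBM27-POU4F3, and clusters in such pairs cannot be told apart by gene.

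The first question of the titration is which binding sites are still found from few cells. Summed over the 41 members, the number of PTBP1 clusters at 1000 cells was 6.53% (5.77 to 7.34) of that at 10000000 cells, against 3.12% (3.08 to 3.15) in the other protein-coding genes. In all such percents of the number at 10000000 cells, the interval takes the lower number as a part of the higher one. The lists are separate, so the interval leaves out the counting error of the number at 10000000 cells and is too narrow. At 10000 cells the members stood at 39.6% and the other genes at 25.8%, and at 100000 cells at 87.8% and 79.7%. The members' number was therefore less reduced at low input than that of other genes, and the gap was widest, as a ratio, at 1000 cells.

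Strand moved with this result. Minus-strand sites made up 69.3% of the whole list at 1000 cells, 61.2% at 10000, 55.4% at 100000 and 54.0% at 10000000 cells. Within the minus strand the members stood at 10.2% at 1000 cells and the other genes at 3.99%. Within the plus strand they stood at 3.26% and 2.10%. Without RBM26, a minus-strand gene, all members stood at 4.33% (3.68 to 5.06) and the minus-strand ones at 5.95%. The members remained above the other genes in each of these subsets, by a margin that was smaller than with RBM26.

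Gene by gene, 18 members had at least 50 PTBP1 clusters at 10000000 cells. Their relative number, the number of clusters at a lower input as a percent of that at 10000000 cells, compares numbers and not positions. At 1000 cells it was at least 2 times that of all protein-coding genes together in 6 of them, which is 33.3% of the 18, against a background of 13.4% of genes. In a further 5 it was at most 1/2 of it, or 27.8%, against 47% of genes. At 10000 cells 7 were high, against 11.7% of genes, and 1 was low, against 29.1%. At 100000 cells none was high or low, where 0.431% and 5.42% of genes were. The median relative number at 1000 cells was 4.14% in the members and 1.69% over all genes of this size.

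Among these 18, the members with the highest relative number at 1000 cells came from several roles. After RBM26 these were RBM5 with 16.1%, RBM4 with 15.0%, RBM34 with 14.0% and RBM28 with 13.7%. By role, over all 41 members, the 3 ribosome-assembly genes together stood at 12.1% (9.05 to 15.7), the decay and m6A genes 11.6% (9.70 to 13.8), the splicing genes 4.42% (3.52 to 5.46) and the RBMS genes 1.33% (0.535 to 2.71). The decay and m6A value rests on RBM26, which supplied 106 of its 113 clusters at 1000 cells. RBMS2 held none, and 0 beside 165 allows, at 3 counts, up to 1.82%. The RBMS genes also stood low at 100000 cells, with 55.5%, whereas the splicing genes stood at 97.7%.

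**Figure D2:**
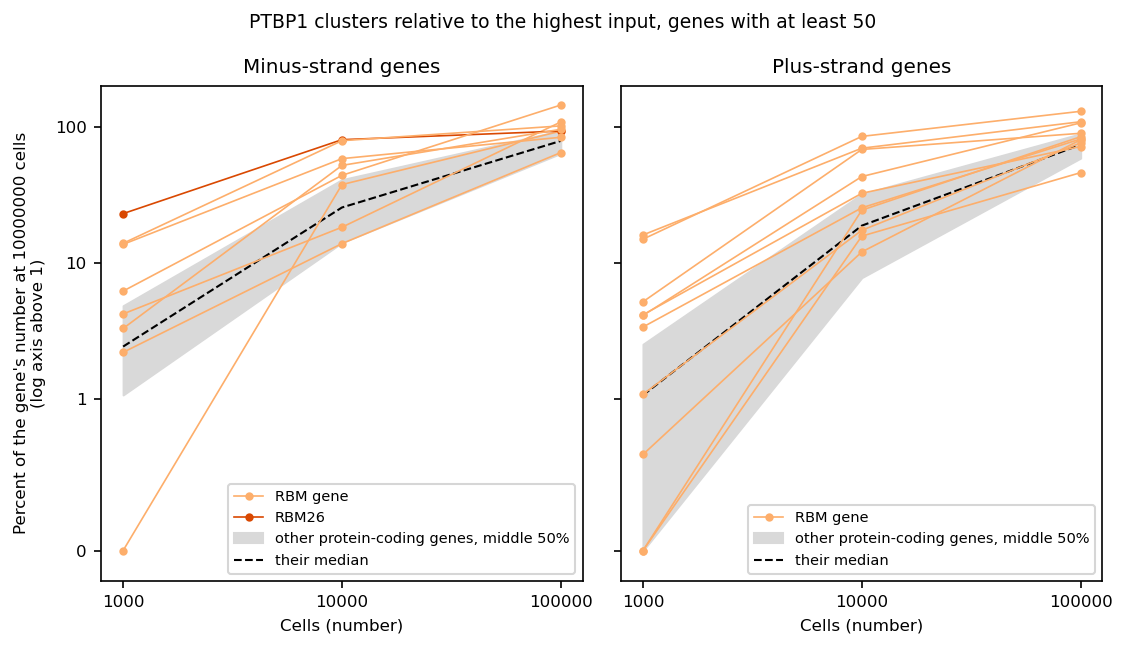
PTBP1 clusters at 1000, 10000 and 100000 cells as a percent of the gene's number at 10000000 cells (vertical axis, logarithmic above 1), for the 18 RBM genes with at least 50 clusters (orange lines), beside the median (dashed) and middle 50% (grey) of the other protein-coding genes on the same strand. RBM26 (dark orange, left panel) is highest at 1000 cells with 23.0%, and 3 RBM genes (RBM33 and RBMS2 on the plus strand, RBM23 on the minus strand) are at 0 there.

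Clusters found at low input mostly lay where PTBP1 was also found at 10000000 cells. Of the members' clusters at 1000 cells, 84.4% (79.3 to 88.6) overlapped a cluster of the highest input by at least 1 nt, against 72.9% in other genes. At 10000 cells 79.3% overlapped in members and 75.5% in other genes, and at 100000 cells 61.4% and 56.0%. Conversely, 132 of the members' 3923 clusters at 10000000 cells, or 3.36% (2.82 to 3.98), were overlapped in all 3 lower inputs, against 1.37% (1.35 to 1.40) in other genes. RBM26 supplied 57 of the 132, RBM34 14, and RBM28 and RBM4 12 each. RBM33, with no cluster at 1000 cells, could supply none.

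RBFOX2 was compared with PTBP1 to show which members it bound more, or less, than its list length would give. Among members with at least 50 PTBP1 clusters at 10000000 cells, RBM5, RBM34, RBM28, RBM26 and RBM4 were highest for RBFOX2 relative to PTBP1. The lowest were RBM19, RBMS1, RBMS2 and RBM20, of which RBM20, at 0.519, did not reach 1/2. RBM genes held 822 of 109983 RBFOX2 clusters in protein-coding genes, or 0.747% (0.697 to 0.800). As a share of each list this was 1.71 times (1.59 to 1.85) the PTBP1 share at 10000000 cells, while the other genes stood at 1.00. Set against the PTBP1 list from 10000 cells, the ratio was 1.11 (1.02 to 1.21), and without RBM26 it was 1.51 against the highest input.

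List length moved with this ratio. The RBFOX2 list has 117586 clusters and lies between the PTBP1 lists from 1000 cells (30911) and 10000 cells (248167), and its RBM share of 0.747% lies between theirs of 0.915% and 0.671%. The part of list length in the ratio was not tested. Against other genes of the same strand the members stood higher on both strands, with 1.51 beside 0.867 on the plus strand and 1.95 beside 1.12 on the minus strand.

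Of the 18 members with at least 50 PTBP1 clusters at 10000000 cells, 8 had an RBFOX2 share at least 2 times their PTBP1 share, which is 44.4%, against 14.3% of all such genes. At most 1/2 of the PTBP1 share was found for 3 members, or 16.7%, against 39.2% of genes. The median ratio was 1.93 in the members and 0.705 over all genes. Against the PTBP1 list from 10000 cells, 9 members had at least 50 clusters, of which 1 (RBM33, 2.19) was high, where 3% of genes were, and 1 (RBM39, 0.468) was low, where 7.18% were. The median was then 1.14 in the members and 0.927 over all genes. RBM28 stood at 1.43 there, RBM34 at 1.36, RBM26 at 1.03 and RBM4 at 0.877. RBM5, with 39 PTBP1 clusters at 10000 cells, was not among the 9.

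Among the 18, RBM5 had the highest ratio, with 31 RBFOX2 clusters beside 56 of PTBP1, which gives 4.53 (2.82 to 7.14). RBM34 followed with 4.18 (3.06 to 5.67), RBM28 with 3.24 (2.46 to 4.23), RBM26 with 3.22 (2.69 to 3.83) and RBM4 with 2.90 (2.02 to 4.10). The intervals of the other 4 all overlap that of RBM5, so these 5 genes cannot be ranked among themselves. RBM10 with 2.66, RBM33 with 2.08 and RBM25 with 2.02 were the others of the 18 past 2 times. The relative number at 1000 cells, between 13.7% and 23.0% in the 5 highest, is divided by the same PTBP1 list from 10000000 cells, so the ratio and the relative number are not independent.

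RBM19 had the lowest ratio of the 18, 0.230 (0.0274 to 0.863), with 2 RBFOX2 clusters beside 71 of PTBP1. RBMS1 stood at 0.439 (0.252 to 0.714), RBMS2 at 0.446 (0.200 to 0.868), RBM20 at 0.519 (0.313 to 0.816) and RBM23 at 0.674 (0.263 to 1.45). By role the ribosome-assembly genes reached 3.01 in spite of RBM19, the decay and m6A genes 2.38, the splicing genes 1.58 and the RBMS genes 0.418. Between RBM28 and RBM19, both of ribosome assembly, the ratios differed with intervals that do not overlap.

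**Figure D3:**
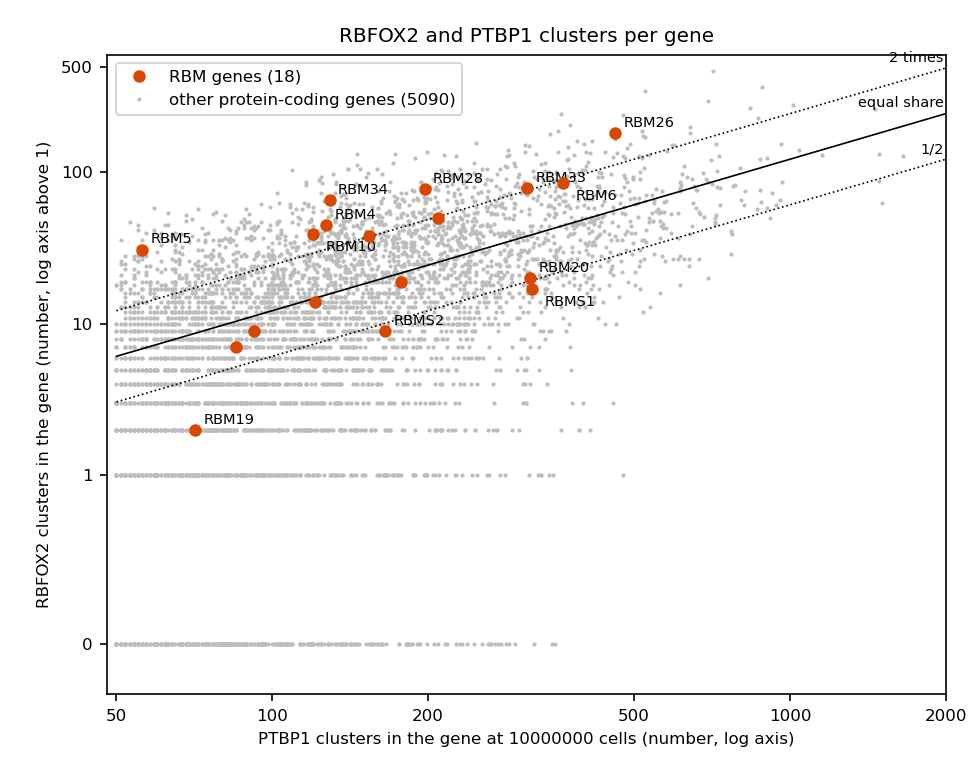
RBFOX2 clusters against PTBP1 clusters at 10000000 cells for 18 RBM genes (orange) and 5090 other protein-coding genes (grey) with at least 50 PTBP1 clusters, both axes logarithmic (vertical above 1). The solid line marks an equal share of both lists and the dotted lines 2 times and 1/2 of it; RBM5 is farthest above the solid line (4.53) and RBM19 farthest below (0.230).

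The RBFOX2 clusters of the members were mostly at PTBP1 positions. They overlapped PTBP1 clusters of 10000000 cells in 86.5% (84.0 to 88.8) of 822 cases, against 81.8% in other genes. In the other direction, 13.1% (12.1 to 14.2) of the members' PTBP1 clusters overlapped RBFOX2, against 7.94%. In RBM28 94.9% of the RBFOX2 clusters overlapped PTBP1, in RBM34 93.9% and in RBM26 89.0%. RBM33 with 74.7% (59 of 79) and RBM20 with 65% (13 of 20) were lower. No interval was computed for single genes, and the number in RBM20 is small. In RBM34 29.5% of the PTBP1 clusters overlapped RBFOX2, and in RBMS1 3.15%.

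Within the genes, the places with most clusters recurred between inputs and proteins in some members and shifted in others. In RBM26 the window of 1000 nt with most clusters began 5 to 6 kb into the gene, near 6% to 7% of its length, in all 5 lists. For PTBP1 at 1000 cells it was chr13:79399642-79400641. This window held 25 RBFOX2 clusters, and 13, 32, 27 and 28 of PTBP1 from 1000 to 10000000 cells. Because RBM26 is bound at many more places, the leading window held 14.4% of its RBFOX2 clusters and 12.3% of its PTBP1 clusters at 1000 cells.

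RBM5 and RBM28 were more concentrated. In RBM5, chr3:50094865-50095864, about 6 kb into the gene, held 14 of 31 RBFOX2 clusters and 8 of 9 PTBP1 clusters at 1000 cells (88.9%). It held 21, 14 and 12 of PTBP1 at the 3 higher inputs. In RBM28, chr7:128309229-128310228, 34 kb into the gene, held 33 of 78 RBFOX2 clusters and 16 of 27 PTBP1 clusters at 1000 cells (59.3%), with 31, 30 and 27 at the higher inputs. At 10000000 cells another window of RBM28, chr7:128306051-128307050, took the lead with 35 clusters. That window held 7 of RBFOX2, and 0, 12 and 19 of PTBP1 at 1000, 10000 and 100000 cells.

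RBM33 and RBM34 also changed their leading window between inputs. In RBM33 a window at the 3′ end, chr7:155780125-155781124, held 23 of 79 RBFOX2 clusters. It led for PTBP1 at 10000 cells with 23 of 76 clusters, and held 24 and 27 at 100000 and 10000000 cells. A window in the middle of the gene, chr7:155708798-155709797, held 6 of RBFOX2 and led for PTBP1 at 10000000 cells with 30 clusters. In RBM34, chr1:235157042-235158041 led for RBFOX2 with 31 of 66 clusters. That window held 5, 41, 34 and 26 PTBP1 clusters from 1000 to 10000000 cells. Another, chr1:235150475-235151474, led at 10000000 cells and held 7, 34, 40 and 45. Of these 2 windows the first was thus ahead for PTBP1 only at 10000 cells.

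In RBM25 and RBM41 the leading window for PTBP1 also differed between low and high input. The window leading for RBFOX2 in RBM25, chr14:73101245-73102244, held 17 of its 38 clusters and 18 PTBP1 clusters at 10000 cells, whereas the window leading for PTBP1 at 10000000 cells, with 26, held 2 of RBFOX2. In RBM41, chrX:107117086-107118085, within 2 kb of the 5′ end, held 18 of 50 RBFOX2 clusters and 7 of 13 PTBP1 clusters at 1000 cells, and 14 of 209 at 10000000 cells. In RBM10 the leading windows of all 5 lists overlapped near 70% of its length, with 12 of 39 RBFOX2 clusters and 3 of 5 PTBP1 clusters at 1000 cells.

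The leading windows were compared in genes with at least 50 PTBP1 clusters at 10000000 cells, where the window held more clusters than every window apart from it in both lists. The window of RBFOX2 overlapped that of PTBP1 at 10000 cells in 12 of 16 members, or 75%, against 71.4% of other genes, and that at 10000000 cells in 5 of 16, or 31.2%, against 54.2%. Between PTBP1 inputs it was shared by 6 of 10 members for 1000 and 10000 cells, against 66.3% of other genes, and by 13 of 18 for 100000 and 10000000 cells, against 67.6%. Between 1000 and 10000000 cells it was shared by 3 of 10 members, RBM10, RBM26 and RBM5, against 50% of other genes.

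**Figure D4:**
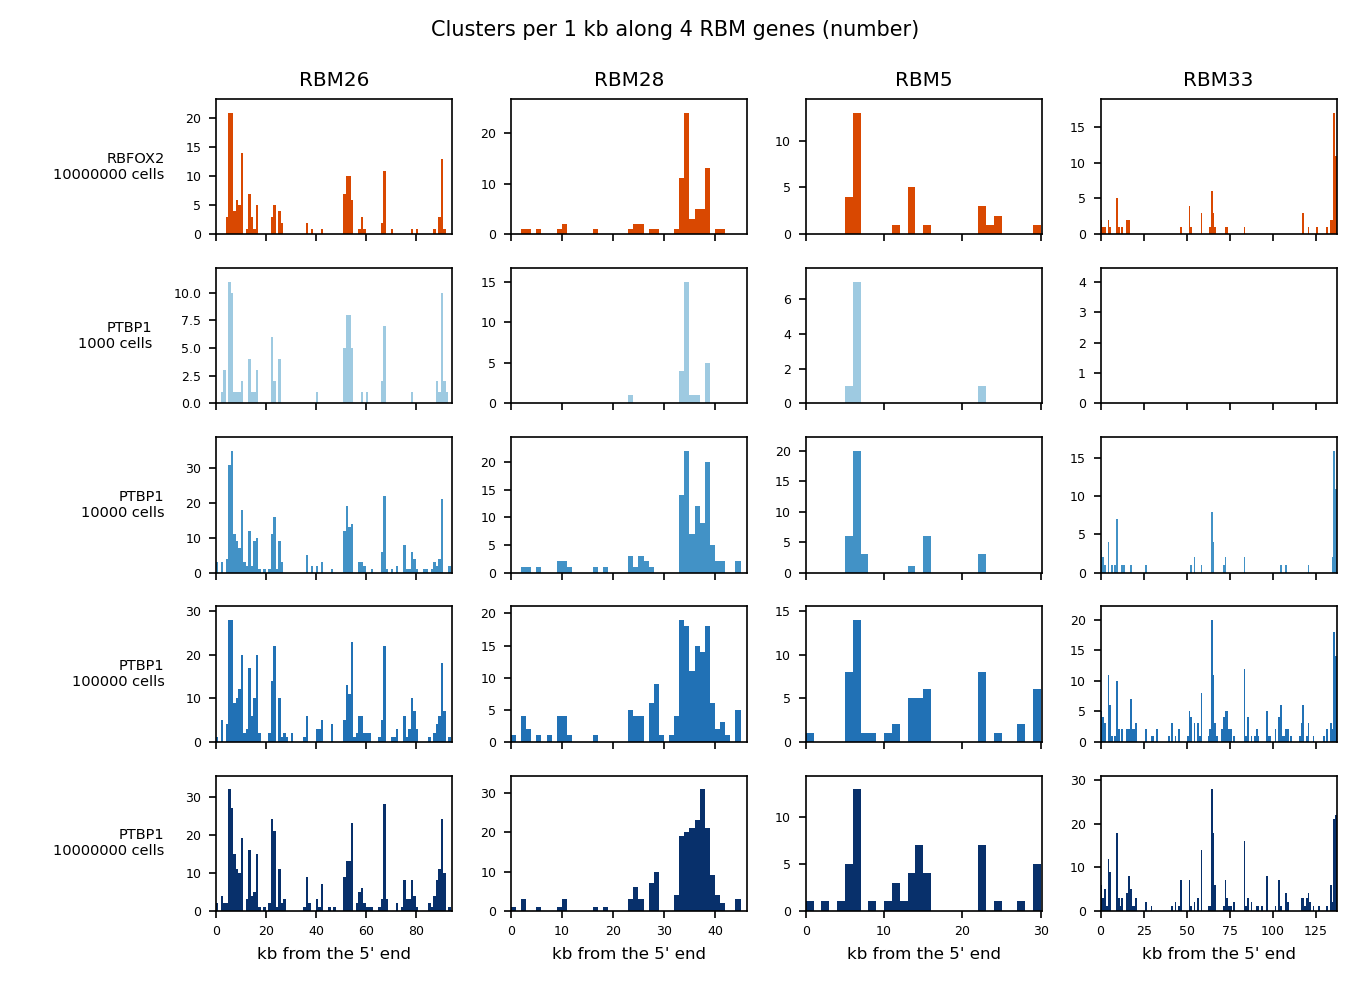
Clusters per 1 kb (vertical axes, number, each panel on its own scale from 0) along RBM26, RBM28, RBM5 and RBM33, in kb from the 5′ end, for RBFOX2 (top row) and PTBP1 at 1000, 10000, 100000 and 10000000 cells (lower rows); the 4 genes were chosen after their values were seen. RBM5 has its tallest bar between 6 and 7 kb in all 5 lists, RBM28 has its tallest RBFOX2 bar near 34 kb, and RBM33 is empty at 1000 cells.

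Toward the 3′ end the members differed from other genes at low input. At 1000 cells 2.34% (0.865 to 5.03) of the members' clusters lay in the last 2000 nt of the gene, 6 of 256, against 12.3% in other genes. At 10000 cells 5.09% lay there in members and 9.43% in other genes, at 100000 cells 4.67% and 4.54%, and at 10000000 cells 6.12% and 7.76%. RBFOX2 had 6.57% and 7.79% there. None of the 6 was in RBM26. Without that gene the members stood at 4% (1.48 to 8.50) at 1000 cells, still below other genes. For RBFOX2 they then stood at 8.42% (6.39 to 10.8), an interval that includes the 7.79% of other genes.

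The SpyCatcher lists ask whether version 2.0 recovers more sites than version 1.0. With 20 µg the members held 193 clusters with version 2.0 and 143 with version 1.0, a ratio of 1.35 (1.08 to 1.69), and other genes stood at 1.53 (1.50 to 1.56). With 40 µg the numbers were 225 and 145, a ratio of 1.55 (1.25 to 1.93), and other genes stood at 1.57. As shares of the lists the members stood at 0.839% and 0.954% with 20 µg and at 0.857% and 0.869% with 40 µg, with ratios of 0.879 (0.705 to 1.10) and 0.987 (0.798 to 1.22). More clusters were thus found in the members with version 2.0, by about the factor seen in other genes.

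The number of members with a cluster was not higher with version 2.0. With 20 µg 19 members held a cluster with version 2.0, where 30.5% of all genes did, and 20 with version 1.0, where 25.6% did. With 40 µg it was 23 members with either version, against 31.7% of genes with version 2.0 and 26.7% with version 1.0. With 20 µg 13 members had more clusters with version 2.0, where 22.4% of all genes did, and 8 with version 1.0, where 9.65% did. With 40 µg these were 19 members, against 23.8% of genes, and 4 members, against 9.36%. Of RBM33's clusters, 17 and 20 came with version 2.0 and 8 and 9 with version 1.0, at 20 and 40 µg. RBM10 had 15 and 13 with version 2.0 and 17 and 13 with version 1.0. Between 88.1% and 90.2% of the members' clusters in these 4 lists overlapped PTBP1 at 10000000 cells, against 80.9% to 82.9% in other genes.

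The 8 Cas13 lists held 42 sites in RBM genes, beside 12864 in other protein-coding genes. The 42 sites lay in 21 members. The share of all genes with a site in any of the 8 lists was not counted, so the 21 has no background here. Of the 42 sites, 3 overlapped a site of another Cas13 list, all in RBM5. With dPspCas13b and EZH2g1, 0 of 56 sites in protein-coding genes lay in a member, which at 3 counts allows a share of up to 5.36%, and 0.302% of all genes had a site. EZH2g2 gave 3 sites, all in RBM5, where 2.88% of genes had a site. The third guide gave 0 of 115, which allows up to 2.61%, with 0.592% of genes reached. Without a guide dPspCas13b had 14 sites in 11 members, or 26.8% of members, where 11.7% of genes had a site.

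With dRfxCas13d and EZH2g1 there were 3 sites in 3 members (7.32%), where 4.66% of genes had a site, and with EZH2g2 8 sites in 6 members (14.6%), against 6.08% of genes. The third guide gave 8 sites in 5 members (12.2%), against 9.41%, and the protein without a guide 6 sites in 5 members (12.2%), against 11%. As shares of all sites in protein-coding genes these were 0.324% (0.0669 to 0.945), 0.421% (0.182 to 0.829), 0.407% (0.176 to 0.800) and 0.218% (0.0801 to 0.474), and the intervals overlap. Of the 12 members with a guide-carrying dRfxCas13d site, 4 (RBM15, RBM17, RBM25 and RBM27) also had a site without a guide.

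RBM5 was the only member that both proteins bound with a guide. The guides EZH2g1 and EZH2g2 are named for EZH2, the methyltransferase of Polycomb repressive complex 2, and RBM5 lies on another chromosome, with the EZH2g2 sites 18 to 25 kb into the gene. With EZH2g2, dPspCas13b had sites at chr3:50107428-50107553 and chr3:50107464-50107595, and dRfxCas13d had a site at chr3:50107415-50107586 that shares 126 and 123 nt with them. Neither protein had a site in RBM5 without a guide, with EZH2g1 or with the third guide. The shared stretch of 181 nt and the 1000 nt on each side of it held no RBFOX2 cluster and no PTBP1 cluster at any input. dPspCas13b had a further EZH2g2 site at chr3:50108014-50108138, and dRfxCas13d at chr3:50113345-50113527 and chr3:50113885-50114072. In other protein-coding genes 8.17% of the 600 EZH2g2 sites of dPspCas13b overlapped one of dRfxCas13d.

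RBM33 was the leading member of dRfxCas13d with the third guide. It had 4 sites there, of which 3 lay at its 3′ end within chr7:155780513-155781127, and none without a guide. This stretch of 615 nt held 18 RBFOX2 clusters, and 0, 16, 17 and 18 of PTBP1 from 1000 to 10000000 cells. The 3 sites thus lay in a stretch where both splicing regulators had clusters. These lists come from separate libraries, and binding of the proteins to the same RNA molecule was not tested. EZH2g2 gave 1 more dRfxCas13d site, in the body of RBM33. In the whole family 14 of the 42 Cas13 sites (33.3%) overlapped a PTBP1 cluster of 10000000 cells, close to the 36.9% in other genes.

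Other members had single sites with a guide. With EZH2g2, dRfxCas13d had a site across the annotated 5′ end of RBM34 (chr1:235161155-235161325) and of RBM48 (chr7:92528728-92528893), with centres 10 and 15 nt into the gene, and single sites in RBM25 and RBM28. With EZH2g1 it had a site in RBM15B, RBM26 and RBM28, of which the one in RBM28 overlapped 6 PTBP1 clusters. With the third guide there was a site in RBM15, RBM17, RBM27 and RBM6. A single site in a list without scores gives no measure of its strength.

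Without a guide dPspCas13b had 2 sites each in RBM15, RBM26 and RBM3 and 1 each in RBM10, RBM14, RBM19, RBM27, RBM39, RBM7, RBMS2 and RBMX. dRfxCas13d without a guide had 2 in RBM23 and 1 each in RBM15, RBM17, RBM25 and RBM27. RBM15 and RBM27 were reached by both unguided proteins. Of the 14 dPspCas13b sites none overlapped one of dRfxCas13d (0%, 0 to 23.2). That interval includes the 11.8% of other genes. The RBM27 site of dPspCas13b, 2.3 kb from the 3′ end, overlapped 7 PTBP1 clusters, and that of RBM10 lay 121 nt from the 5′ end. Of the 14 sites 4 (28.6%, 8.39 to 58.1) lay in the last 2000 nt of the gene, against 46.6% in other genes.

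Genes that work with the members were looked at in the same way. Of 26 listed partners 25 had a known strand, and 21 of these held an RBFOX2 cluster and 17, 24, 25 and 25 a PTBP1 cluster from 1000 to 10000000 cells. Over all genes 44% had an RBFOX2 cluster and 34.7%, 51.8%, 62.2% and 66.2% a PTBP1 cluster. CASC3, VIRMA and ZC3H3 took their strand from PTBP1 clusters at 10000000 cells and so hold one there by construction. PABPN1, the poly(A)-binding partner of the RBM26 and RBM27 complex, held 26 RBFOX2 clusters in 4707 nt, and 6, 37, 45 and 51 of PTBP1, which is 108 per 10 kb at 10000000 cells. U2AF2, which recognises the polypyrimidine tract beside the 3′ splice site and resembles RBM39, held 49 of RBFOX2, and 15, 69, 86 and 119 of PTBP1. Its partner U2AF1 held none of RBFOX2, and 0, 0, 5 and 5 of PTBP1. Among the m6A writer genes, METTL3 and METTL14 held no RBFOX2 cluster and ZC3H13 held 23, beside 24, 26 and 240 of PTBP1 at 10000000 cells.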

How the data were processed

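uSpyCLIP-seq reads were trimmed with Trim Galore 0.0.6 and aligned with STAR 2.7.9a to hg38, per the submitters' processing notes. Which site caller and thresholds were used, and whether libraries were pooled, is not given in the sources used here. Chromosome, start, end and strand were deposited for each site, with no measured value, so depth is unknown. Starts are given from 1. RefSeq spans of GRCh38.p14 defined 19974 protein-coding genes. The strand came from the promoter table for 15813 genes and, for 1747 more, from at least 3 PTBP1 clusters at 10000000 cells with at least 90% on 1 strand. Strand was taken from clusters for 4 members (RBM43, RBM48, RBM12B and RBM39), and 2414 genes without strand were left out. For 8541 genes with both, clusters gave the table's strand in 96.6%.

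The members, gene lists and rules were chosen with earlier results of these data known. Members were named when among the 10 highest in clusters at 10000000 cells, at 1000 cells, per 10 kb or for RBFOX2. The 5 highest and 5 lowest in RBFOX2 ratio and the 5 highest in number at 1000 cells relative to 10000000 cells, among members with at least 50 clusters, were also named, with every member that had a Cas13 site or no site at all. A ratio compares the gene's share of sites in 2 lists. Genes with at least 50 PTBP1 clusters at 10000000 cells were called at 2 times or 1/2. Alternatives changed the midpoint rule, strand, shared genes, merging, gene ends, overlap rule and the leading member. Python 3.11.15 was used with numpy 2.4.6, pandas 2.3.3, scipy 1.17.1 and matplotlib 3.10.9. Counting and overlap were tested on simulated sites, where 0 of 13200 answers differed from a search of all pairs.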

Additional observations from a re-analysis of the deposited data

How the results depend on the processing

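The number of members with a site stayed within 1.5 times in all 85 alternative values, as did the Cas13 numbers in 40 and the SpyCatcher ratio within its interval in 12. The RBM share moved past its interval in 22 alternatives and not in 114. Without the leading member it was 0.583% for RBFOX2, 0.536%, 0.511%, 0.420% and 0.385% for PTBP1 from 1000 to 10000000 cells, 0.591% and 0.621% for SpyCatcher 2.0 and 0.701% and 0.617% for SpyCatcher 1.0 (20 and 40 µg), and 0 for dPspCas13b with EZH2g2, whose only member is RBM5. With strand from the promoter table alone, an alternative added after seeing the data, it was 0.854% for RBFOX2 and 1.04%, 0.750%, 0.539% and 0.490% for PTBP1. Counted in covered bases it was 0.816% for RBFOX2 and 0.752%, 0.560% and 0.510% for PTBP1 from 10000 cells up, and without sites in another gene 0.621%, 0.437% and 0.396%. The RBFOX2 ratio was 1.11 against the 10000-cell list and 1.51 without RBM26. The number at 1000 cells as a percent of that at 10000000 cells was 3.26 on the plus strand, 10.2 on the minus strand and 4.33 without RBM26; leaving out RBM26 was chosen after seeing the data. Overlap with PTBP1 at 10000000 cells within 10 nt was 90.9% for RBFOX2 and 88.7%, 85.4% and 73.0% for PTBP1 from 1000 to 100000 cells. When at least 0.5 of the shorter site had to be shared it was 83.3% for RBFOX2 and 77.0% and 58.7% for PTBP1 at 10000 and 100000 cells. The cause of these moves was not tested, and the RBFOX2 ratio stayed above 1 in all its alternatives. No paired analysis was possible because each group has 1 list and the replicates have no values of their own.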
